A study of Mus musculus with 6 samples.

Results

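The genes described here are 10 genes of antigen presentation on molecules of the major histocompatibility complex (MHC), taken by symbol from a fixed list, out of 25655 genes listed for each library. All 10 were found by Ensembl identifier. Of these, 7 belong to the class I pathway (H2-K1, H2-D1, B2m, Tap1, Tap2, Tapbp and Nlrc5) and 3 to the class II pathway (H2-Ab1, H2-Aa and Cd74). In the series, CD8 T cells from spleens of female C57BL/6 mice labelled WT were set against such cells labelled Utx knockout (Utx KO), where Utx is the histone H3K27 demethylase encoded by Kdm6a. Not stated in the sources used here are the mice's ages, the part of the gene deleted and the cells in which it was deleted. In both groups naive cells (CD44 low, CD62L high) were activated for 2 days with interleukin 2 (10 ng/ml) on wells coated with anti-TCR-beta (3 µg/ml) and anti-CD28 (1 µg/ml), then kept in interleukin 2 for 3 days, so RNA was taken at day 5. Each genotype had 3 libraries labelled as biological replicates; nothing says whether these came from separate animals, so p-values measure only the spread between these samples.

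Class I molecules sit on nearly all nucleated cells and display peptides made in the cytosol to CD8 T cells. A heavy chain (H2-K1 or H2-D1 in this strain) pairs with beta-2 microglobulin (B2m), and peptides reach it through the transporter Tap1-Tap2 and the bridging chaperone tapasin (Tapbp). Nlrc5 is the transactivator of these genes. Class II molecules display peptides from endosomes to CD4 T cells and are made mainly by B cells, dendritic cells and macrophages: the alpha chain H2-Aa and the beta chain H2-Ab1 form I-A, the invariant chain Cd74 guides them, and the transactivator Ciita switches the genes on. Resting and activated mouse T cells are known for abundant class I and for little or no class II of their own. Both transactivators act through the same promoter module, in which an X box is bound by the RFX complex and CREB family factors and a Y box by NF-Y.

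Short cores of that shared module are visible in the sequences upstream of some class I and class II members. These are shown because genes as far apart in level as B2m and H2-Aa carry such cores. The rest of the module was not searched for. Each line gives the bases from 200 to 11 before the RefSeq start (GRCm38.p6), 5′ to 3′ on the gene's strand, with the core of the X2 box (TGACG) and the Y box (ATTGG, the reverse complement of CCAAT) in capitals. H2-K1 lies at chr17:34000358-34000547 on the minus strand, B2m at chr2:122147487-122147676 on the plus strand and H2-Aa at chr17:34287834-34288023 on the minus strand.
H2-K1: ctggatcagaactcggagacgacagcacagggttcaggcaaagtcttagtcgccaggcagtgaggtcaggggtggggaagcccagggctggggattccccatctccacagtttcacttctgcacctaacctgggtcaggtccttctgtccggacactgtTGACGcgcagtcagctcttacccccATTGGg
B2m: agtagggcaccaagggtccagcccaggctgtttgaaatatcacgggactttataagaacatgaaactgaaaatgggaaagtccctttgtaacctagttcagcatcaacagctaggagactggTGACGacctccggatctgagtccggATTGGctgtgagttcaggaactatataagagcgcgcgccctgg
H2-Aa: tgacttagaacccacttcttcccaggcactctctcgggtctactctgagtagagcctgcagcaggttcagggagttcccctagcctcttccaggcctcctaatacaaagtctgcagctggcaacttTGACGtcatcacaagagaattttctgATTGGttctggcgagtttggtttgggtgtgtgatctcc

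In these windows 20 bases separated the boxes in H2-K1, in H2-D1 (not printed) and in B2m, and 21 bases in H2-Aa. On either strand TGACG occurred in 14.7% and CCAAT in 28.5% of 32817 RefSeq windows of the same 190 bases. The ordered pair with 18 to 22 bases between, a spacing chosen after these sequences were read, occurred in 0.113% (37 windows of 35 genes). Of those 35 genes, 6 were MHC genes of the lists used here: B2m, H2-K1, H2-D1, H2-Q7, H2-M3 and H2-Aa. Of the 22 that were tested for a genotype difference, 1 rose (Nfe2l1, named after its value was seen) and 0 fell. Of all tested genes 5.28% rose and 5.51% fell, so this count is near the background. The B2m window also held an interferon-stimulated response element, found in 2.15% of windows, and H2-K1, H2-D1, B2m and H2-Aa each held an NF-kappa-B-type site, found in 14.1%. Tap1 held TGACG without the Y box. Tapbp and the class II gene H2-Eb1, which is not a member, held the Y box without TGACG. Tap2, Nlrc5, H2-Ab1 and Cd74 had no entry in the promoter table. A match is a run of letters, not evidence of binding, and a missing match says only that these letters are not in the window.

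The libraries are 3′ end libraries, in which each transcript gives about 1 tag, so levels in CPM (reads scaled to 1000000 per library) can be compared between genes without a correction for length. Recovered totals ran from 1619085 to 2529113 reads, and a count of 0 still allows 3 reads, which stand for 1.19 to 1.85 CPM; such floors and the counting intervals below cover counting error only. Kdm6a was at 44.3, 49.3 and 53.6 CPM in WT libraries and 27.8, 39.4 and 31.5 CPM in Utx KO (log2 fold change −0.57, limma adjusted p = 0.0123, past the threshold in 14 of 18 alternative settings); it was lower but not absent, and a tag outside the deleted part checks nothing. Of the 7 markers of CD8 T cells, Cd3d, Cd3e, Cd3g, Cd8a, Cd8b1 and Lck were present in all 6 libraries, with the list summing to 1770 to 1860 CPM in WT libraries and 2060 to 2100 CPM in Utx KO; Trac was listed at 0 throughout, and Cd4 too. In RNA from mixed cells, fewer cells of a type and less RNA per cell cannot be told apart.

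Summed over its members, class I stood at 9099 to 9699 CPM per library and class II at 67.7 to 112 CPM, although H2-Ab1 alone lay above Nlrc5. The 7 class I members stood at 44.5 to 6278 CPM, and 0 of them changed between WT and Utx KO (2 fitted higher, 5 lower; median log2 fold change −0.03). At an unadjusted p under 0.05, 1 of the 7 passed (Tapbp), and edgeR and DESeq2 on recovered reads each called 0. The 3 class II members were all fitted higher in Utx KO (median log2 fold change 1.28), and 1 of them, H2-Ab1, passed the test. Over all 10590 genes tested by limma on log2(CPM + 1), 10.8% were called at a Benjamini-Hochberg adjusted p under 0.05, with 5.28% called higher and 5.51% called lower in Utx KO, and the median log2 fold change was 0.01. The share of members called (1 of 10) is thus near the background. Groups did not overlap for 2 of 7 class I members (Tap1 and Tapbp) and for 3 of 3 class II members, where 26.5% of tested genes had groups that did not overlap, 14.0% with Utx KO higher. All 10 members passed the filter of at least 1 CPM in 3 libraries, but H2-Aa passed only through the Utx KO libraries. Its direction and its lack of overlap were thus fixed by the filter. The difference between the classes was not tested.

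**Figure D1:**
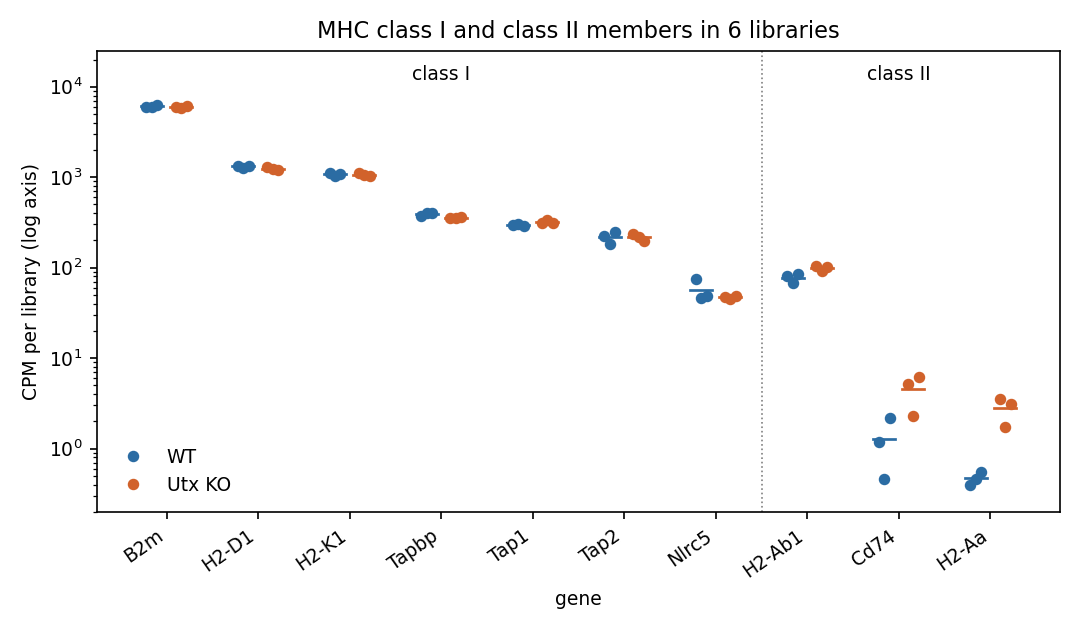
Level of the 10 members in CPM (log axis) in each of 3 WT (blue) and 3 Utx KO (orange) libraries, with a bar at each group's mean. Class I members run from B2m at 5880 CPM or more down to Nlrc5 at 44.5 to 74.3 CPM, with groups that overlap except for Tap1 and Tapbp, while H2-Ab1, Cd74 and H2-Aa each have all Utx KO points above all WT points.

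B2m, the light chain common to all class I molecules, was the most abundant member, ranking at place 4 of all 25655 listed genes by mean CPM. It was at 5918, 6008 and 6278 CPM in WT libraries and 5907, 5880 and 6081 CPM in Utx KO. The groups overlapped, and the fitted fold (Utx KO over WT) was 0.982 with a 95% interval of 0.939 to 1.03 (limma adjusted p = 0.674). H2-K1, the K heavy chain on chromosome 17 (33996017 to 34000347, minus strand), was at 1104, 1037 and 1096 CPM in WT libraries and 1113, 1052 and 1037 CPM in Utx KO. Its fold was 0.989, with an interval of 0.926 to 1.05 (limma adjusted p = 0.890). H2-D1, the D heavy chain (35262730 to 35267499, plus strand), was at 1339, 1279 and 1338 CPM in WT libraries and 1299, 1218 and 1204 CPM in Utx KO. WT replicate 2 lay below Utx KO replicate 1, so the groups overlapped, and the fold was 0.941 (0.884 to 1.00; limma adjusted p = 0.228). Across these 3 abundant genes the intervals reached from 0.884 to 1.05 times the WT level, on the log2(CPM + 1) scale on which folds are given.

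For H2-K1, H2-D1 and B2m the spread between replicates was larger than counting alone gives. Between WT libraries the coefficient of variation was 3.37% for H2-K1, 2.59% for H2-D1 and 3.09% for B2m, against 2.08%, 1.88% and 0.878% expected from read numbers. In Utx KO that of B2m was 1.83% against 0.942%. Not every member scattered so: Tap1 was at 2.39% against 3.98% in WT libraries, and Tapbp at 1.76% against 3.85% in Utx KO.

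Within each library the balance of the heavy chains can be read without any scaling. H2-D1 gave 1.21, 1.23 and 1.22 reads per H2-K1 read in WT replicates 1, 2 and 3, and 1.17, 1.16 and 1.16 in Utx KO replicates 1, 2 and 3. Every Utx KO library was lower than every WT library, but the counting interval of each single library was wider than that gap (1.15 to 1.28 in WT replicate 1, 1.11 to 1.23 in Utx KO replicate 1). Pooled over libraries the balance was 1.22 in WT (exact 95% counting interval 1.18 to 1.26, 8607 and 7046 reads) and 1.16 in Utx KO (1.13 to 1.20, 7353 and 6321 reads). The pooled intervals overlap, but overlap is not a test of the difference, and the difference was not tested. This ratio was chosen after the values were seen. B2m gave 2.42, 2.59 and 2.58 reads per read of H2-K1 and H2-D1 together in WT and 2.45, 2.59 and 2.71 in Utx KO, with overlapping groups. Of the 50-nt pieces in the last 300 nt of their coding transcripts, 9.54% for H2-K1 and 13.5% for H2-D1 also occur in transcripts of other genes, with each other as the largest sharer, so a part of these reads could be assigned to the wrong copy; for B2m the share was 0.

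**Figure D2:**
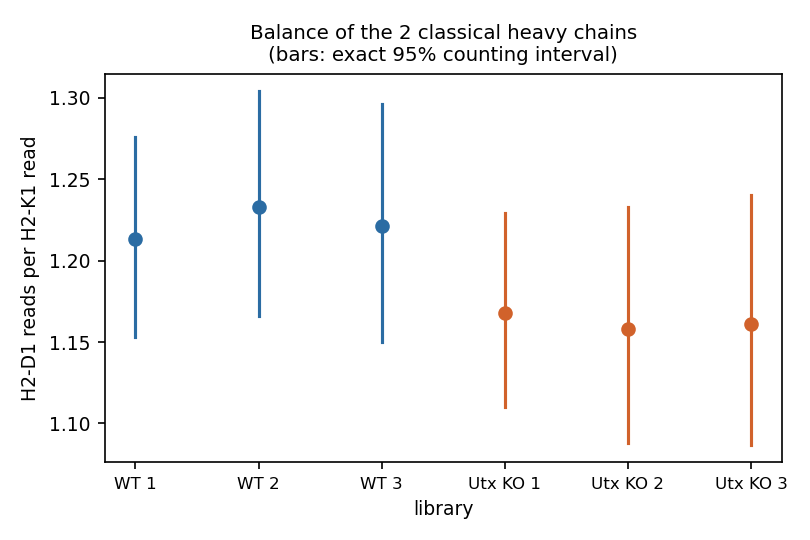
Reads of H2-D1 per read of H2-K1 in each library (points), with exact 95% counting intervals (bars); the axis does not start at 0. WT libraries lie at 1.21 to 1.23 and Utx KO libraries at 1.16 to 1.17, with intervals that overlap between any WT and any Utx KO library.

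The peptide transporter and its bridging chaperone moved little and not in one direction. Tap1, the first transporter subunit (chromosome 17, 34187553 to 34197225), was at 299, 301 and 288 CPM in WT libraries and 310, 336 and 313 CPM in Utx KO. All Utx KO libraries were above all WT libraries, yet the fold of 1.08 (0.987 to 1.18) did not pass (limma adjusted p = 0.315). Its partner subunit Tap2 was at 223, 182 and 247 CPM in WT libraries and 234, 220 and 197 CPM in Utx KO, with overlapping groups and a fold of 1.00 (0.882 to 1.14; limma adjusted p = 0.980). Tap2 scattered by 15.2% between WT libraries, where counting alone gives 4.64%. Reads of Tap1 per read of Tap2 ran from 1.16 to 1.65 in WT and from 1.32 to 1.59 in Utx KO. Tapbp (tapasin) was at 374, 406 and 403 CPM in WT libraries and 358, 350 and 362 CPM in Utx KO. It was lower in every Utx KO library, with a fold of 0.904 (0.831 to 0.984), but did not pass after adjustment (limma adjusted p = 0.131; 0.113 to 0.363 over 18 alternatives). Tap1 shares exon sequence with Psmb9 on the opposite strand only at its 5′ end, 9461 bases from its 3′ end, and Tapbp shares exons with Zbtb22 and an antisense gene 13019 and 8807 bases from its 3′ end; whether reads were assigned by strand is not given in the sources used here.

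Nlrc5, the class I transactivator on chromosome 8, was the scarcest class I member. It was at 74.3, 46.5 and 48.7 CPM in WT libraries and 47.3, 44.5 and 48.8 CPM in Utx KO. WT replicate 1 stood alone, and the other 5 libraries lay within 44.5 to 48.8 CPM. The log2 fold change of −0.23 (95% interval −0.54 to 0.07; limma adjusted p = 0.382) became −0.02 without WT replicate 1 (adjusted p = 0.963). In that library H2-K1, H2-D1 and B2m were not higher than in the other WT libraries by more than their spread (1104, 1339 and 5918 CPM).

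Other genes of the class I pathway came from lists covering loading, non-classical heavy chains, the immunoproteasome and regulators. The loading list also holds the members B2m, Tap1, Tap2 and Tapbp, and the regulator list the member Nlrc5. Counts and medians of these lists include those members. Of the 9 loading genes, 8 did not pass, and 1 fell: Tapbpl (TAPBPR), a tapasin relative that edits the peptides on class I molecules. Over all tested genes 5.51% fell. At an unadjusted limma p under 0.05, 3 of the 9 passed, the member Tapbp among them, and edgeR and DESeq2 each called 1. Tapbpl was at 92.1, 106 and 106 CPM in WT libraries and 79.4, 72.5 and 70.4 CPM in Utx KO, without overlap (log2 fold change −0.45 with an SE of 0.10; limma adjusted p = 0.00424). The call held under all 18 alternatives (adjusted p from 0.00209 to 0.0433). The endoplasmic reticulum chaperones calreticulin (Calr, 578 ± 14.6 and 550 ± 26.5 CPM) and calnexin (Canx, 559 ± 14.1 and 537 ± 6.61 CPM; mean ± SD in WT and Utx KO, n = 3) did not pass (limma adjusted p of 0.479 and 0.579). The median log2 fold change over these 9 genes was −0.07.

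Of 17 non-classical class I genes, 14 had a read, 12 could be tested and 0 changed (6 fitted higher, 6 lower; median −0.02). H2-T22 alone had an unadjusted limma p under 0.05, and edgeR and DESeq2 called 0. H2-Q7, which encodes the Qa-2 antigen, was by far the most abundant at 630 ± 16.3 CPM in WT libraries and 608 ± 9.94 CPM in Utx KO (limma adjusted p = 0.611; ± gives the SD, n = 3). H2-T22, a class I-like molecule that binds no peptide, was at 138, 118 and 120 CPM in WT libraries and 148, 135 and 167 CPM in Utx KO. The groups overlapped and the log2 fold change of 0.25 did not pass (limma adjusted p = 0.0834), although it did without WT replicate 1 (0.0498) or Utx KO replicate 2 (0.0465). Of its 3′ end pieces, 49.0% also occur in other transcripts, chiefly of the neighbouring copy H2-T10, so its level is uncertain to that extent. Mr1, which presents vitamin metabolites, was at 15.0 ± 1.75 and 16.4 ± 3.24 CPM (limma adjusted p = 0.836).

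The immunoproteasome, which cuts the peptides for class I, gave 0 calls among 5 genes by limma (median log2 fold change 0.01), with 2 at an unadjusted p under 0.05 and 0 called by edgeR or DESeq2. Psmb8 was at 1140 ± 43.7 and 1146 ± 44.9 CPM and the activator subunit Psme1 at 593 ± 10.7 and 612 ± 40.2 CPM (SD, n = 3). Psmb9, whose start abuts that of Tap1, was at 470, 427 and 480 CPM in WT libraries and 550, 477 and 528 CPM in Utx KO, with a log2 fold change of 0.17 (limma adjusted p = 0.0755; 0.0271 to 0.346 over 18 alternatives, 3 of them past the threshold).

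Of 16 regulators, 15 could be tested, 0 rose and 1 fell: Jak1, the kinase shared by the receptors for interferons and common gamma-chain cytokines. Of all tested genes 5.51% fell. At an unadjusted limma p under 0.05, 5 of the 15 passed, and edgeR and DESeq2 each called 1. Jak1 was at 637, 624 and 669 CPM in WT libraries and 528, 564 and 555 CPM in Utx KO, without overlap (log2 fold change −0.23, SE 0.05, limma adjusted p = 0.00463), and its call held under all 18 alternatives. Its 3′ end shares exon sequence with Raver2 on the opposite strand, which was at 3.06 and 2.27 CPM. Irf1, which acts on class I promoters, was at 257 ± 43.5 and 233 ± 34.3 CPM, and the interferon gamma receptor chain Ifngr1 at 338 ± 21.9 and 315 ± 15.7 CPM (SD, n = 3; limma adjusted p of 0.483 and 0.403). The median over the 15, the member Nlrc5 among them, was −0.14.

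**Figure D3:**
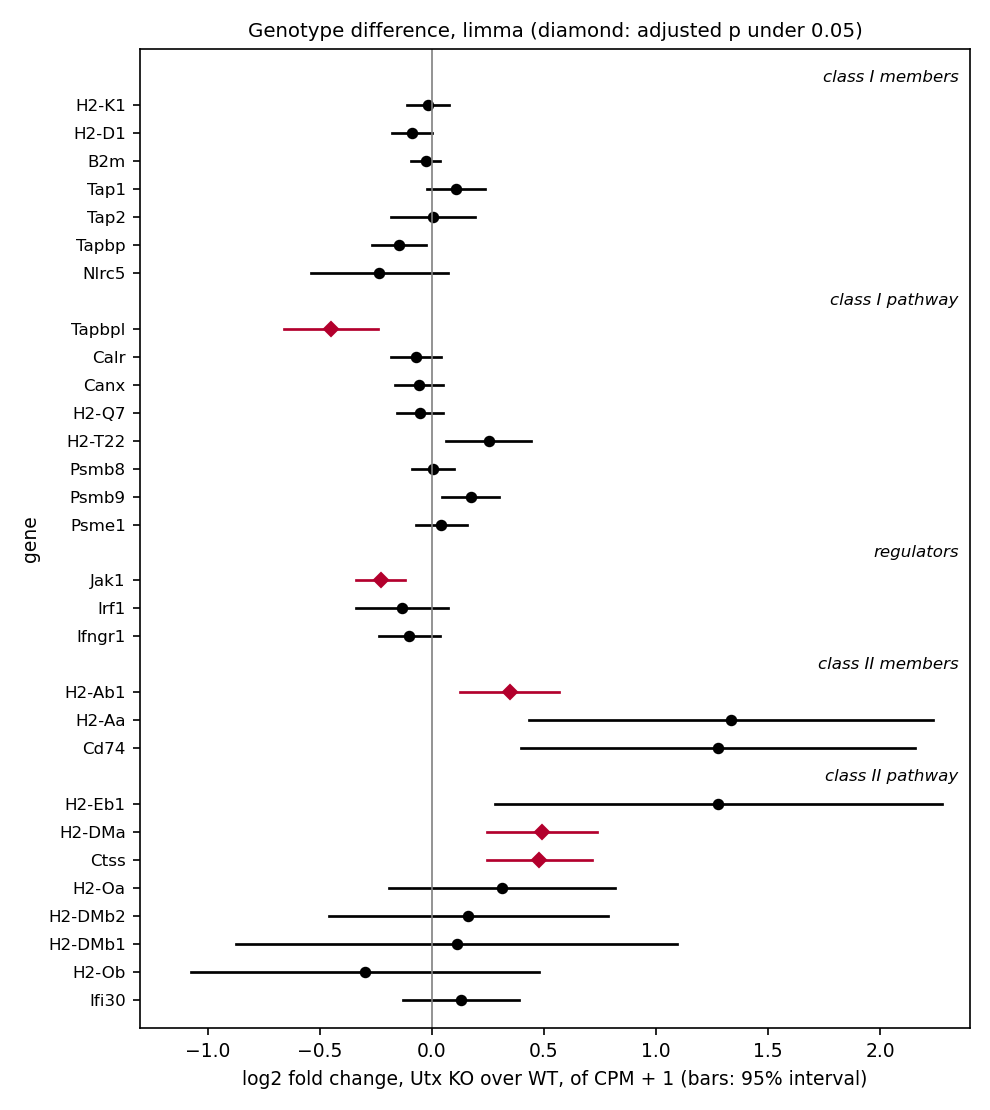
Log2 fold change of CPM + 1 (Utx KO over WT, points) with 95% limma intervals (bars) for members and pathway genes, grouped by role. Tapbpl, Jak1, H2-Ab1, H2-DMa and Ctss (red diamonds) passed the threshold. The intervals are narrow for abundant class I genes and over 1.5 log2 units wide for H2-Aa, Cd74, H2-Eb1, H2-DMb1 and H2-Ob.

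Class II RNA was unevenly represented: the beta chain H2-Ab1 was readily counted, while its partner alpha chain, the invariant chain and the transactivator were at or near 0. The tables give no position of the tags within a gene, so whether the H2-Ab1 reads come from full transcripts of the beta chain was not tested. H2-Ab1 (chromosome 17, 34257689 to 34269419, plus strand) was at 81.5, 66.8 and 84.8 CPM in WT libraries and 103, 90.8 and 102 CPM in Utx KO. Every Utx KO library was above every WT library, by a log2 fold change of 0.35 (SE 0.11, 95% interval 0.13 to 0.57; limma adjusted p = 0.0357). This call was lost with DESeq2 (adjusted p = 0.222). It was also lost when WT replicate 1 (0.0505) or 2 (0.237), or Utx KO replicate 1 (0.0893) or 3 (0.103), was left out. The lowest adjusted p of 18 alternatives was 0.0212. Per 1000 CPM of H2-K1 and H2-D1 together, H2-Ab1 stood at 28.8 to 34.9 CPM in WT libraries and 40.0 to 45.7 CPM in Utx KO.

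H2-Aa, the alpha chain without which H2-Ab1 cannot form I-A, had 1 read in each WT library, whereas the Utx KO libraries held 9, 3 and 5 reads. In CPM these were 0.395, 0.461 and 0.547 in WT and 3.58, 1.71 and 3.09 in Utx KO, so all WT values and 1 Utx KO value lay at or under the floor of 3 reads. The pooled reads, 3 in WT and 17 in Utx KO, gave a ratio of 6.28 with an exact 95% counting interval of 1.82 to 33.5. The interval covers counting error only, not the spread between libraries. H2-Aa passed the filter only through the Utx KO libraries, which fixed its direction. The ratio, the test and the shares given here are thus a description, not evidence of a rise. The limma test on log2(CPM + 1) did not pass (log2 fold change 1.34, SE 0.44, adjusted p = 0.0503; 0.0149 to 0.289 over 12 alternatives). H2-Ab1 gave 169 reads per H2-Aa read in WT and 34.4 in Utx KO, pooled over libraries; H2-Aa was 0.589% (exact 95% interval 0.122 to 1.71) and 2.82% (1.65 to 4.48) of the reads of both chains. No other gene shares exons with H2-Ab1 or H2-Aa, and none of their 3′ end pieces occurs in other transcripts.

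Cd74, the invariant chain encoded on chromosome 18, had 3, 1 and 4 reads in WT and 13, 4 and 10 reads in Utx KO, or 1.19, 0.461 and 2.19 CPM against 5.16, 2.29 and 6.18 CPM. The lowest Utx KO library stood just above the highest WT library. The pooled ratio was 3.74 (exact 95% counting interval 1.65 to 9.53), and the limma test did not pass (log2 fold change 1.28, SE 0.43, adjusted p = 0.0555; 0.0284 to 0.287 over 15 alternatives, 6 of them past the threshold). H2-Aa and Cd74 summed to 0.922 to 2.74 CPM in WT libraries and 3.998 to 9.26 CPM in Utx KO, and in both genes Utx KO replicate 2 was the lowest of its group.

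**Figure D4:**
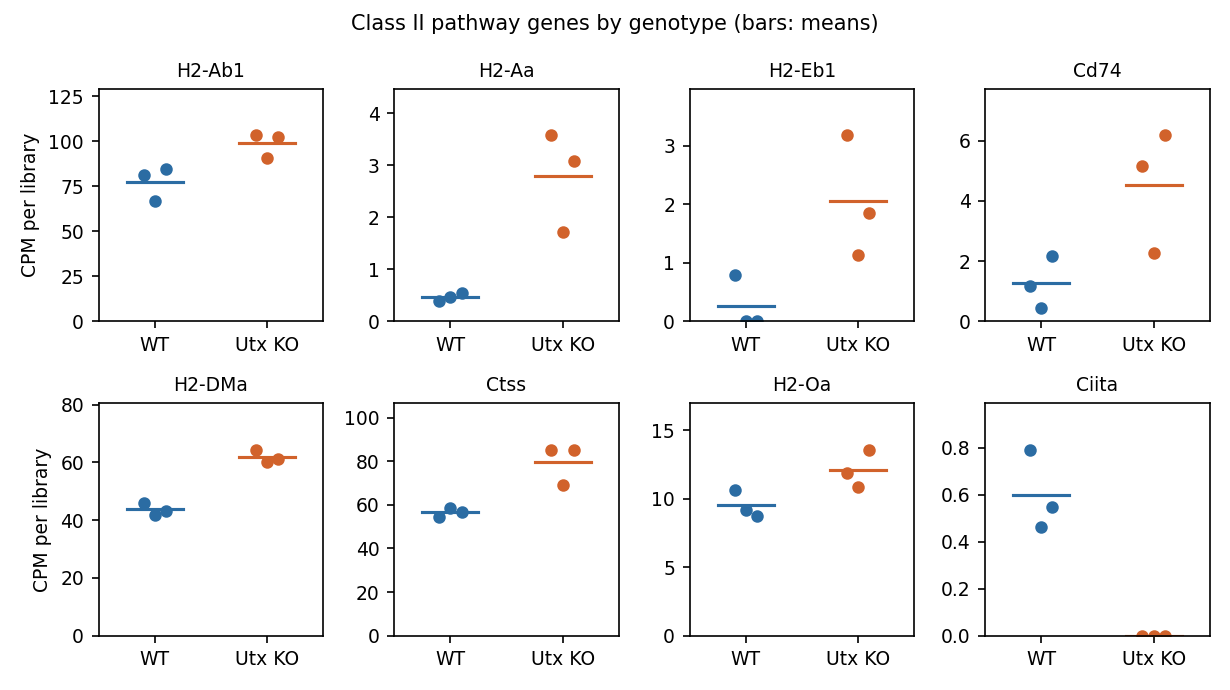
CPM per library (points) and group mean (bars) for 8 class II pathway genes, with an axis of its own from 0 for each gene. H2-Ab1, H2-Aa, H2-Eb1, Cd74, H2-DMa, Ctss and H2-Oa have all Utx KO points above all WT points (14.0% of all tested genes do). For H2-Aa and H2-Eb1 this was fixed in advance, because both passed the filter only through the Utx KO libraries. H2-DMb1, H2-DMb2, H2-Ob and Ifi30, not drawn, have overlapping groups. The transactivator Ciita has 4 reads in WT and 0 in Utx KO.

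The remaining class II genes were described from lists of chains and of processing genes. H2-Eb1, the beta chain of I-E, which this strain does not display because its alpha chain gene is defective, had 2, 0 and 0 reads in WT and 8, 2 and 3 reads in Utx KO. Its pooled ratio was 7.21 (exact 95% counting interval 1.63 to 65.8), with a limma adjusted p = 0.0992; it too passed the filter only through Utx KO. H2-Eb2 was listed at 0 throughout. Ciita had 2, 1 and 1 reads in WT and 0 in each Utx KO library, so every library was under its floor of 3 reads. Pooled, 4 reads stood against 0, a ratio of 0 with an exact 95% counting interval of 0 to 1.68.

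Of 10 genes of class II processing and peptide exchange, 8 could be tested, of which 2 rose and 0 fell, where 5.28% of all tested genes rose. In this list 7 were fitted higher, with a median log2 fold change of 0.24 against 0.01 over all tested genes. These counts and the median include the member Cd74, described above, which was fitted higher (log2 fold change 1.28) but did not pass. H2-DMa, a chain of the exchange factor H2-DM, rose from 45.9, 41.9 and 43.2 CPM in WT to 64.3, 60.0 and 61.1 CPM in Utx KO (log2 fold change 0.49, SE 0.12, limma adjusted p = 0.00748). Ctss, the lysosomal protease cathepsin S that trims the invariant chain, rose from 54.6, 58.5 and 56.9 CPM to 85.0, 69.1 and 85.2 CPM (log2 fold change 0.48, SE 0.11, limma adjusted p = 0.00607). Neither gene's groups overlapped. Both calls were lost with DESeq2 (adjusted p of 0.0981 and 0.0562) and held under the other 17 alternatives, the lowest adjusted p being 0.00436 and 0.00306. H2-DMa shares exon sequence with the opposite-strand gene Brd2, 19201 bases from its 3′ end, and Brd2 was at 335 and 312 CPM (limma adjusted p = 0.348).

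The partner chain of H2-DMa, encoded by H2-DMb1 and H2-DMb2, did not pass the test. H2-DMb1 was at 3.16, 2.30 and 0.547 CPM in WT libraries and 3.18, 0.571 and 3.09 CPM in Utx KO, and H2-DMb2 at 5.43 ± 0.643 and 6.20 ± 0.647 CPM (SD, n = 3; limma adjusted p of 0.936 and 0.817). Their 95% intervals in log2 fold change, −0.87 to 1.09 and −0.46 to 0.78, include the value of H2-DMa. The inhibitor of exchange, H2-DO, is made of H2-Oa and H2-Ob. H2-Oa was at 10.7, 9.22 and 8.75 CPM in WT libraries and 11.9, 10.9 and 13.6 CPM in Utx KO, without overlap but with a limma adjusted p = 0.497, and H2-Ob at 3.49 ± 1.06 and 2.63 ± 0.733 CPM (0.706). Ifi30, the thiol reductase GILT of the lysosome, was at 65.2 ± 12.0 and 70.7 ± 4.84 CPM (limma adjusted p = 0.605). Legumain (Lgmn) had 1 read in all libraries together, and March1, a ubiquitin ligase that removes class II from the surface, had 2.

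**Figure D5:**
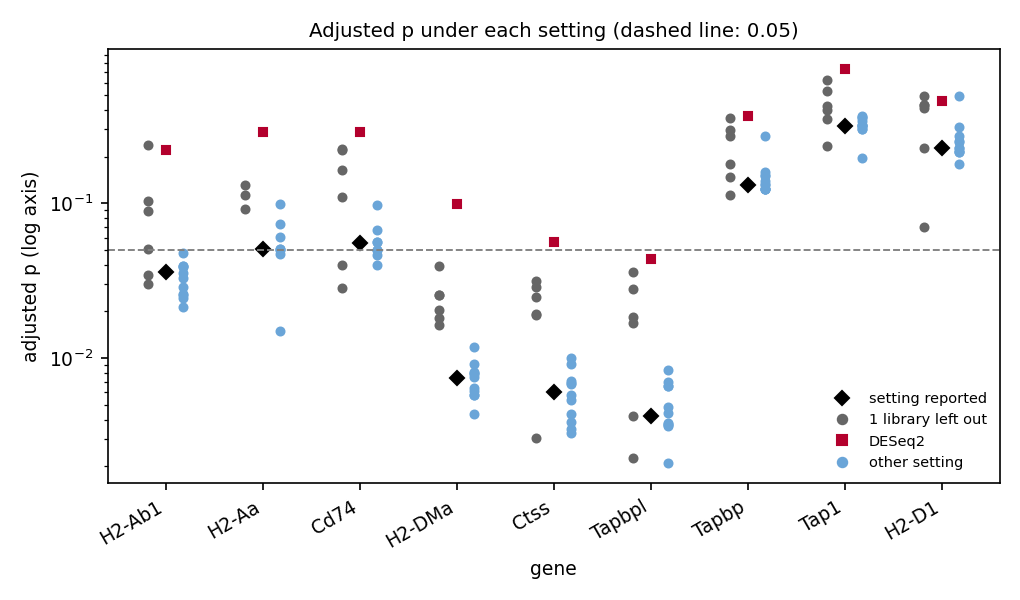
Adjusted p (log axis) of 9 genes under the setting reported (black diamonds), with 1 library left out (grey), with DESeq2 (red squares) and under the other settings (blue); the dashed line is 0.05. H2-Ab1, H2-Aa and Cd74 fall on both sides of the line, H2-DMa and Ctss cross it only with DESeq2, Tapbpl stays below it and Tapbp, Tap1 and H2-D1 stay above it.

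Markers of the cells that normally carry class II were at 0 or at low levels. Some lay above the floor of 3 reads: Bank1 reached 9.09 CPM and Zbtb46 9.89 CPM in WT replicate 1. Batf3 reached 11.1 CPM in Utx KO replicate 1 and Cd68 10.3 CPM in Utx KO replicate 2. Whether such cells supplied class II reads was not tested. Of 10 B cell markers 6 were at 0 in all libraries (Cd79a, Ms4a1, Cd22, Pax5, Blk and Ighm). Ighm is a constant-region gene like Trac, which was listed at 0 in these T cells, so its 0 says nothing about B cells. The list summed to 9.85 to 13.0 CPM in WT libraries and 1.14 to 5.56 CPM in Utx KO. In Utx KO replicates 1, 2 and 3 the B cell sums were 5.16, 1.14 and 5.56 CPM. H2-Aa plus Cd74 summed to 8.74, 3.998 and 9.26 CPM in the same libraries. In WT replicates 1, 2 and 3 the B cell sums were 13.0, 10.1 and 9.85 CPM. There H2-Aa plus Cd74 summed to 1.58, 0.922 and 2.74 CPM, so the lowest B cell sum stood beside the highest class II sum. The B cell sum of Utx KO replicate 2 rests on 1 read of Bank1 and 1 read of Cd79b. A relation between B cell markers and class II values was not tested. Of 8 dendritic cell markers 4 were at 0 (Flt3, Clec9a, Siglech and Clec10a), with sums of 10.4 to 16.6 CPM and 11.1 to 14.9 CPM. Of 10 markers of monocytes and macrophages 7 were at 0 (Adgre1, Lyz2, C1qa, C1qb, Fcgr1, Itgam and Cd14), with sums of 7.11 to 8.29 CPM and 7.55 to 12.4 CPM. None of the 6 tested markers of these cells changed by limma at an adjusted p under 0.05 (4 of the 6 had an unadjusted p under 0.05: Bank1, Cd79b and Zbtb46, which were lower in Utx KO, and Batf3, which activated T cells also express, at 4.24 and 8.80 CPM on average). By edgeR, whose filter left out Bank1 and Cd79b, Batf3 was called, and DESeq2 called 0 of the 6. Of 6 tested markers of CD8 T cells 3 rose, where 5.28% of all tested genes did. These were Cd3d, Cd3e and Cd8b1 (log2 fold changes of 0.30, 0.32 and 0.19, limma adjusted p of 0.000224, 0.0085 and 0.0318). DESeq2 called 1 of the 3. Cd8a, Cd3g and Lck did not pass (limma adjusted p of 0.0923, 0.305 and 0.813), and Lck was fitted lower (log2 fold change −0.03). The part of these markers in the class II values was not tested.

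Across the 6 libraries the mean standardised level of the 7 class I members was followed most closely by Ndufaf8, Cd47, Rer1, Ndufa2 and Chmp2a among 3321 other genes with a mean of at least 50 CPM (Pearson's r of 0.992 to 0.976, Spearman's rho of 0.829 to 1). Cd47, the surface signal that restrains engulfment by macrophages, was at a mean of 678 CPM. None of the 5 changed with genotype (limma adjusted p of 0.139 to 0.665, with 1 at an unadjusted p under 0.05 and 0 called by edgeR or DESeq2). With 6 points that share their libraries and so many candidates, these values are a description only.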

How the data were processed

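The authors deposited 1 table per library with CPM values (reads per gene scaled to 1000000 over the listed genes), per the file headers. Builds named in the submitters' processing notes are GRCm 38 and mm 10. The sources used here give no aligner, counting tool, strand use or filter. RNA (500 ng) went into 3′ mRNA libraries, per the labels' protocols. Dividing by the value of 1 read gave whole reads for 100% of values above 0 (tolerance 0.001 reads). Replicate pairs differed by more than counting noise (chi-square over its degrees of freedom 1.33 to 2.00); all 6 libraries were kept.

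Symbols came from the supplied name table (25600 of 25655 identifiers). The test was limma-trend (limma 3.58.1, R 4.3.3) on log2(CPM + 1), fitted on genotype alone, for genes with at least 1 CPM in 3 libraries; it was two-sided, with Benjamini-Hochberg adjustment and a threshold of 0.05. Because recovered reads are not the deposited values, edgeR 4.0.16 (1106 genes called), DESeq2 1.42.0 (551) and limma-voom served as alternatives, besides other pseudocounts, filters and scalings, a replicate block and leaving out each library. The fits were tested on simulated counts. Coordinates and overlaps are from GENCODE M21 (GRCm38), promoters from RefSeq (GRCm38.p6). Pooled-read intervals are exact binomial (95%).

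Named genes are the members, Kdm6a, list genes past the threshold with up to 3 abundant others per list, every class II list gene with a read and the 5 genes most like class I; marker genes, overlapping neighbours and promoter matches are named besides; 1 regulator that the rule names is not reported here. The members and lists were chosen with earlier results of these data known.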

Additional observations from a re-analysis of the deposited data

How the results depend on the processing

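The number of members called, 1 of 10, depended on the setting. It was 0 with DESeq2, 2 with the replicate block (H2-Ab1 and Cd74), and 3 (H2-Ab1, H2-Aa and Cd74) with no filter on low values, with upper-quartile scaling and with robust moderation in limma; leaving out 1 library at a time it ran from 0 to 2. Over all genes the count of 1142 became 551 with DESeq2 and ran from 747 to 1056 with 1 library left out, the lowest without WT replicate 2; it was 1065 with the replicate block. The replicate numbers did not pair the samples (correlation of deviations of same-numbered libraries 0.00602, −0.00272 and −0.00963). The summed class I CPM was 0.976 times the WT level in Utx KO (0.971 with TMM scaling) and summed class II CPM 1.34 times (1.33); the alternative without members of shared 3′ ends left these as they were, since 0 members reached the limit of 20%. No class I member was called under any of the 18 alternatives. Signs of values near 0 turned: H2-K1 to 0.0111 and B2m to 0.00075 with upper-quartile scaling, Tap2 to −0.0011 with TMM scaling, −0.00063 with median-of-ratios scaling and −0.0011 with DESeq2, and Psmb8 to −0.00036 with TMM scaling. With 1 library left out, H2-K1 reached from −0.0467 to 0.00397, Tap2 from −0.115 to 0.105, Mr1 from −0.0182 to 0.256, Psmb8 from −0.0248 to 0.0378, Psme1 from −0.00554 to 0.0886, H2-DMb1 from −0.309 to 0.577 and Ifi30 from −0.00308 to 0.261 in log2 fold change. The cause of these shifts was not tested. Depth limits H2-Aa, H2-Eb1, Cd74, H2-DMb1, H2-Ob and Ciita, at 0 to 13 reads per library.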
